A study of Mus musculus with 6 samples.

Results

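The comparison set BaF3 cells given a mutated Notch1 plasmid, CTdel, against BaF3 cells given the fluorescent protein plasmid alone, con. It rests on 4 of the 6 libraries of the series, 2 per group, and the change of each gene was taken within each of the 2 deposited tables, which hold replicate 1 and replicate 2. BaF3 is a mouse line described in the labels as pro-B, and every group was grown with 10% serum and 2 ng/mL mouse interleukin-3, nucleofected with plasmid and sorted after 24 h. The con cells carried pmax-Clover, which encodes the green fluorescent protein Clover, and the CTdel cells carried pmax-Clover-CTdel. The series text describes CTdel as a mutated form of ICN, the intracellular part of Notch1, and what the letters stand for is not given in the sources used here. The other 2 libraries came from cells with pmax-Clover-ICN and are set beside the comparison where useful. All groups express from a plasmid 24 h after entry, no group went without plasmid, and the labels do not give the 2 replicates as separate cultures, so the p-values cover only the spread among these libraries, which may be technical.

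Notch receptors are cut on ligand binding, and the released intracellular part enters the nucleus, binds the DNA-binding protein RBPJ and switches on target genes. In blood formation Notch1 is best known for directing progenitors to the T lineage, and the genes examined here belong to other programmes: myeloid cells, whose master factor is PU.1 (encoded by Spi1), cytotoxic lymphocytes, which kill through granule proteases such as granzyme B, integrins, which hold leukocytes to vessel walls and matrix, and the GATA2, TAL1 and MYB factors of haematopoietic progenitors.

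Values were FPKM, fragments normalised to transcript length and to library size. They summed to between 489693 and 507894 per library, and the depth of the 6 libraries, read from the lowest values of small RNA genes, lay between 0.963 and 1.08 times that of con replicate 1. Notch1 had FPKM 0.89 in con replicate 1 and 1.72 in con replicate 2, against 84.9 and 25.4 in CTdel and 190 and 888 in ICN. Both CTdel libraries lay above both con libraries, with a log2 change of 4.39 that did not pass the test (adjusted p = 0.0947), and reads of the plasmid cannot be told apart from those of the cell's own gene. Of the 23 B-lineage genes listed in both tables, 16 were under FPKM 1 in all 6 libraries. Among these Ebf1 was at or below 0.02, whereas Btk and Cd79b were present, so most listed RNAs of the labelled lineage were low or missing. The interleukin-3 receptor genes Il3ra and Csf2rb, which are not B-lineage markers, were present. In bulk samples such as these, fewer cells of a type and less RNA per cell cannot be told apart.

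In CTdel, 144 of the 11050 tested genes rose against con, 1.3% of those tested, and 12 fell, 0.109%. The test was limma's on log2(FPKM + 1), with a threshold of 0.05 on the adjusted p, and 1302 genes were at an unadjusted p under that threshold. All changes below are on this scale, which understates the change of genes with low FPKM. The genes that rose and the genes that fell started from different levels. Those that rose had a median con mean of 4.57 and a median CTdel mean of 30.6, and 41 of the 144 were under FPKM 1 in both con libraries, 10 of them listed at 0. Those that fell had a median con mean of 128 and a median CTdel mean of 38.9, against a median con mean of 14.0 over all tested genes. The median change was 2.29 among the genes that rose and −1.72 among those that fell, and the smallest changes that passed were 1.27 and −1.44. Without CTdel replicate 1 the counts were 109 higher and 1 lower, and without CTdel replicate 2 they were 103 and 6. Without con replicate 1 or 2 they were 111 and 11 or 110 and 13. These were only in part the genes above: 75 of the 144 rises and 4 of the 12 falls still passed without con replicate 1, and 80 and 3 without con replicate 2.

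**Figure D1:**
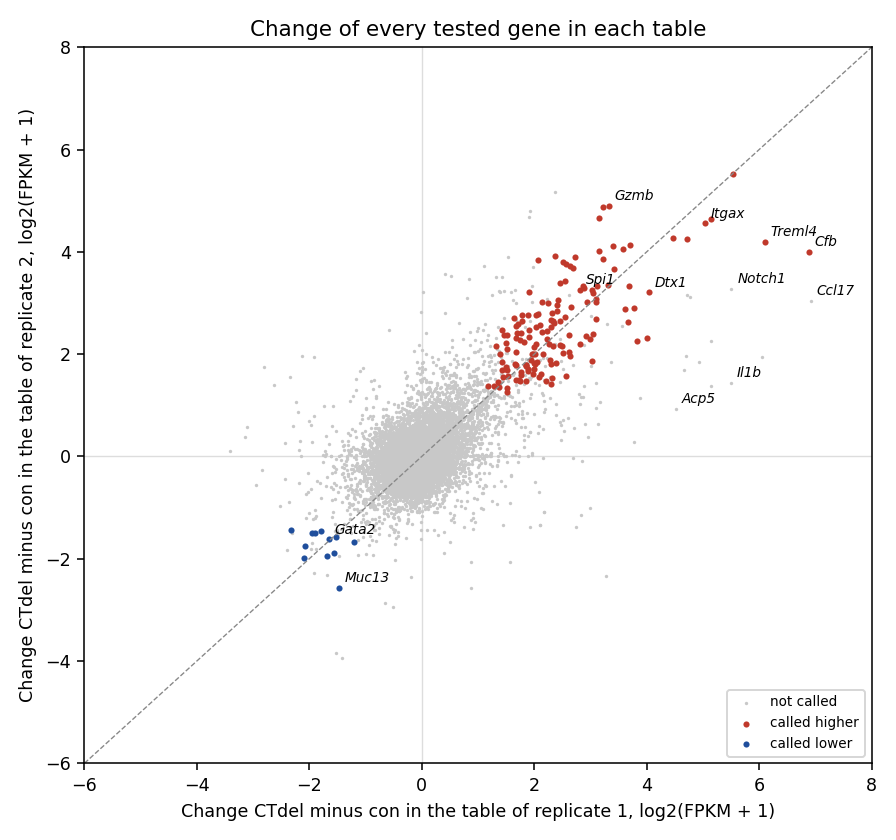
Change of each of the 11050 tested genes, CTdel minus con in log2(FPKM + 1), in the table of replicate 1 (x axis) against the table of replicate 2 (y axis). Red points are the 144 genes called higher, blue points the 12 called lower and grey points the rest; the dashed line marks equal change. Cfb and Treml4, both called, and Ccl17, Il1b, Acp5 and Notch1, which were not, lie to the right of that line, their change being larger in replicate 1.

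Promoters of 106 of the genes that rose and 11 of those that fell were found in RefSeq sequence of build GRCm38.p6. They are windows around a start that need not be the gene's outermost one. Each was searched on both strands for the RBPJ core (TGGGAA), a PU.1 site (GAGGAAGT), a GATA site (AGATAA) and an AP-1 site (TGANTCA). Motifs were searched separately, so that matches of different motifs may overlap. The RBPJ core was in 32.9% of the 143 windows of genes that rose, in 14.3% of the 14 windows of genes that fell and in 23.0% of the 11004 windows of all tested genes. The PU.1 site was in 5.59%, 0% and 3.54%, the GATA site in 6.29%, 14.3% and 6.5%, and the AP-1 site in 11.9%, 28.6% and 5.18%. The median GC content of the windows was 57.7%, 57.5% and 60.3%. These shares describe the letters only and were not tested. The windows of Dtx1, a Notch target that rose, and of Gata2, which fell, held none of the 4 motifs. The Dtx1 window (chr5:120711620-120711919, minus strand) lies mostly inside the gene, whose RefSeq start is at 120711867, so bases further upstream were not searched. The promoters of 2 genes that rose and 1 that fell were chosen among those with a match and are printed here. Itgax, Gzmb and Cpa3 are called members of the integrin, cytotoxic and mast cell lists described further on. Cpa3 was the only called gene of 7 tested in the mast cell list. Capitals mark a GATA site at −217 and an AP-1 site at −56 in the window of Itgax (chr7:128129300-128129599, plus strand). They also mark an AP-1 site at −58 in that of Gzmb (chr14:56262285-56262584, minus strand) and a GATA site at −46 in that of Cpa3 (chr3:20242132-20242431, minus strand). Positions are counted from a fixed base of each window, which for Itgax and Cpa3 lies downstream of the RefSeq gene start. Each sequence is written 5′ to 3′ on the gene's strand.
Itgax: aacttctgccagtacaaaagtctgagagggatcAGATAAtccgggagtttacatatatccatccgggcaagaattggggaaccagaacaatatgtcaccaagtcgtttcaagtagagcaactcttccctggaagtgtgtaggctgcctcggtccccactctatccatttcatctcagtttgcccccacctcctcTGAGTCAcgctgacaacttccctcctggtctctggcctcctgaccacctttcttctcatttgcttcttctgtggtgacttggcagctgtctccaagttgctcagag
Gzmb: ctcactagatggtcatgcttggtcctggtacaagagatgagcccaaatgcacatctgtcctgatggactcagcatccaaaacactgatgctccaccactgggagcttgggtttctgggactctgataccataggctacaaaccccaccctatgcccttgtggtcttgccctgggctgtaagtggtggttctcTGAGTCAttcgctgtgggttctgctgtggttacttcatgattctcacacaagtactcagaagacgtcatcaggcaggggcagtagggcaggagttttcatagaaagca
Cpa3: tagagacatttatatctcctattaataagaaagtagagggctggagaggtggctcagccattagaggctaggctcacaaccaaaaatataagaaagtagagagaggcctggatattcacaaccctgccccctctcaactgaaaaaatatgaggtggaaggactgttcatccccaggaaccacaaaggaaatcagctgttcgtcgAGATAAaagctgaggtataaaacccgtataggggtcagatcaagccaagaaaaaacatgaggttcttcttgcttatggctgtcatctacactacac

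The myeloid gains began with transcription factors. Spi1, which encodes PU.1, had FPKM 39.1 and 47.7 in con (replicate 1 first, as in all later pairs of values), 281 and 463 in CTdel and 155 and 139 in ICN. The CTdel libraries were the highest of the 6, and the log2 change against con was 3.03 ± 0.26 (SE, n = 2; limma adjusted p = 0.0170). Id2, which blocks E proteins and is needed for dendritic and natural killer cells, had 25.2 and 10.6 in con, 245 and 167 in CTdel and 68.0 and 19.0 in ICN. Its log2 change was 3.54 ± 0.32 (adjusted p = 0.0196), with no overlap between con and CTdel, but without the table term it did not pass (adjusted p = 0.0529). These were 2 of the 9 tested myeloid transcription factors, and 0 fell. The median change of the 9 was 0.72, with 0.28 in replicate 1 and 1.16 in replicate 2, beside −0.06 over all tested genes. Over the 17 members in both tables it was 0.15. The tested members of a list include genes that reached the filter only where they were high. The medians and shares of tested members therefore describe those genes and not the whole list, whose median is given beside them. List members were also chosen with earlier results of these data known, so the counts by list are no support for a programme. Nfatc1, an osteoclast factor, had 20.3 and 17.1 in con and 37.8 and 44.9 in CTdel (adjusted p = 0.1), whereas Cebpb (0.29) and Zeb2 (−0.03) lay near no change. Irf8, Klf4 and Gfi1, which define monocyte and granulocyte fates, were under the filter on low values.

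Among myeloid receptors and adaptors, 5 of 34 tested genes rose and 0 fell, with a median change of 0.66 over the 34 and of 0.25 over the 49 in both tables. Tyrobp encodes DAP12, the signalling adaptor of many activating receptors, and had 52.2 and 20.6 in con, 247 and 117 in CTdel and 124 and 40.7 in ICN. Within each table CTdel was the highest, with a log2 change of 2.34 ± 0.22 (adjusted p = 0.0200). Ptafr, the receptor of platelet-activating factor, had 0.95 and 1.35 in con, 18.3 and 23.1 in CTdel and 16.7 and 19.3 in ICN, so that the CTdel and ICN values overlapped while con stood apart (log2 change 3.33, adjusted p = 0.0124). Tlr2, a sensor of bacterial lipoproteins, rose from 2.89 and 2.85 to 23.0 and 14.9 (log2 change 2.33, adjusted p = 0.0200), and Cd68, a lysosomal glycoprotein of macrophages, from 8.32 and 4.46 to 23.0 and 14.0 (log2 change 1.41, adjusted p = 0.0364). Treml4, a TREM family receptor of macrophages and dendritic cells, was listed at 0 in con, with 67.9 and 17.3 in CTdel and 7.26 and 0.28 in ICN (adjusted p = 0.0265). Cd68 did not pass with any of the 4 libraries left out, at an adjusted p of 0.0955 to 0.323, and Tyrobp did not without CTdel replicate 2 (0.0604). Without the table term 3 of the 5 did not pass, with Treml4 at an adjusted p of 0.0529, Tyrobp at 0.200 and Cd68 at 0.211.

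Other receptors of this group did not pass. Csf1r, the receptor of macrophage colony-stimulating factor, had 0.05 and 0.01 in con and 7.96 and 1.72 in CTdel (adjusted p = 0.125). Cd300lf, an inhibitory receptor, had 29.7 and 16.9 in con and 77.8 and 63.8 in CTdel (adjusted p = 0.097). Tlr9, the receptor of unmethylated CpG DNA, had 0.38 and 0.18 in con, 2.39 and 2.79 in CTdel, and 1.33 and 1.52 in ICN (adjusted p = 0.0651). The defining granulocyte receptor Csf3r was under the filter, as were the chemoattractant receptors Fpr1, Fpr2 and C5ar1. Of the 34, 7 were under FPKM 1 in both con libraries.

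Phagocyte effectors gave 4 rises among 25 tested genes and 0 falls, with a median change of 0.77 (0.21 over the 36 in both tables). Lyn, a Src family kinase, had 39.5 and 30.6 in con and 164 and 145 in CTdel (log2 change 2.12, adjusted p = 0.0272). Slc11a1, a metal transporter of phagosomes, rose from 0.50 and 0.80 to 6.54 and 7.01 (log2 change 2.24, adjusted p = 0.0261), below the ICN values of 7.66 and 13.9. Complement factor B, Cfb, had 0.71 and 0.55 in con but 200.5 and 23.8 in CTdel, so its size depended on the replicate (log2 change 5.44 ± 0.83, adjusted p = 0.0486, and 0.137 without the table term). Lyn passed only without CTdel replicate 1 among the 4 libraries left out (adjusted p 0.0425, otherwise up to 0.119), and Slc11a1 did not without con replicate 2 (0.0528) or CTdel replicate 1 (0.0737). The neutrophil genes S100a8, S100a9 and Mmp8 did not share the rise. S100a8 had 7.64 and 28.8 in con and 2.92 and 6.84 in CTdel, S100a9 7.84 and 46.4 against 3.84 and 11.4, and the collagenase Mmp8 2.25 and 7.11 against 0.58 and 1.72, and none of the 3 passed (adjusted p = 0.133, 0.259 and 0.094). Mpo, Elane, Cybb and Camp, genes of granulocytes, their precursors and other phagocytes, were under the filter.

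Genes of osteoclasts and dendritic cells gave 1 rise each, among 7 tested genes in either list. Ocstamp, which osteoclast precursors need to fuse, was listed at 0 in con, with 34.2 and 24.0 in CTdel and 3.25 and 0.31 in ICN (adjusted p = 0.0170). Its partner Dcstamp and the osteoclast protease Ctsk were under the filter, and the acid phosphatase Acp5 was listed at 0 in con, against 21.9 and 0.90 in CTdel (adjusted p = 0.23). The 7 tested dendritic cell genes had a median change of 2.17, but 3 of them were under FPKM 1 in both con libraries, and over the 18 in both tables the median was 0.21. Of the 7 Itgax passed, and Ccl17, a chemokine of dendritic cells, had 0.21 and 0 in con and 145.6 and 7.28 in CTdel (adjusted p = 0.0696). Cd80, a costimulatory ligand, had 5.11 and 2.10 in con and 29.7 and 12.7 in CTdel (adjusted p = 0.152), while ICN reached 18.2 and 37.3. The dendritic cell factors Batf3 and Zbtb46 and the receptor Flt3 were under the filter.

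**Figure D2:**
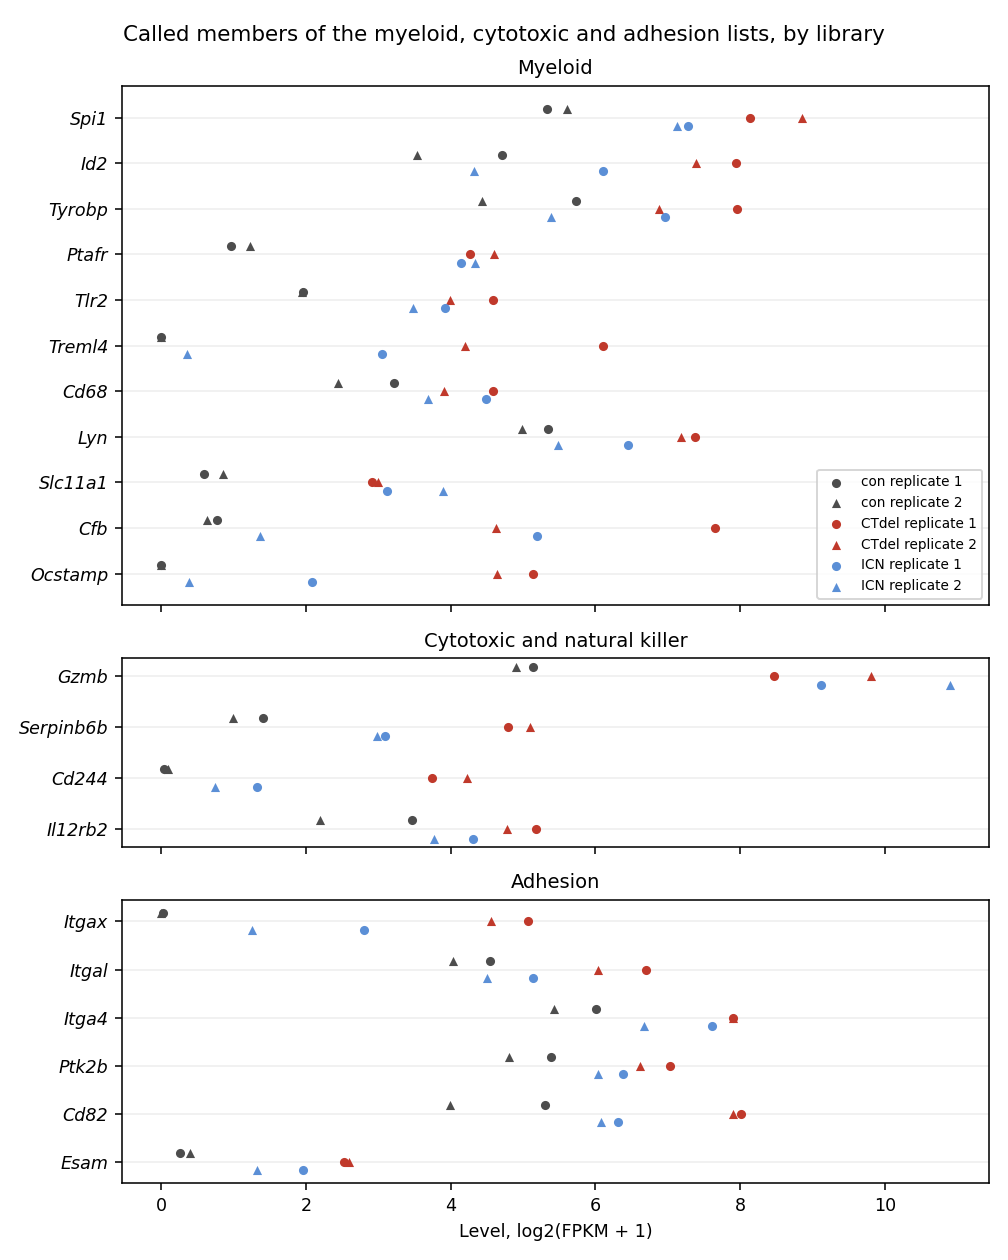
Level in log2(FPKM + 1) of called members of the myeloid, cytotoxic and adhesion lists in the 6 libraries; grey marks con, red CTdel and blue ICN, with circles for replicate 1 and triangles for replicate 2. In each row both red symbols lie to the right of both grey ones, while the blue symbols lie between them in most rows and, for Gzmb and Slc11a1, each beyond the red symbol of the same replicate.

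Cytotoxic genes rose in 2 of 13 tested members and fell in 0, with a median change of 0.40 (0.32 over the 20 in both tables). Gzmb, granzyme B, had FPKM 34.2 and 28.9 in con, 352 and 892 in CTdel and 556 and 1905 in ICN. CTdel lay above con in both tables and below ICN in both, with a log2 change against con of 4.11 ± 0.48 (adjusted p = 0.0261). Serpinb6b, a serpin that inhibits granule proteases, had 1.64 and 0.98 in con, 26.8 and 33.4 in CTdel and 7.56 and 6.91 in ICN (log2 change 3.76 ± 0.25, adjusted p = 0.0135), so that the order of the 3 groups was not that of Gzmb. Neither Gzmb nor Serpinb6b lost its call with any of the 4 libraries left out, at an adjusted p of at most 0.0185. Other granule genes did not pass. Srgn, the proteoglycan that holds granule proteases, had 243 and 164 in con and 329 and 223 in CTdel (adjusted p = 0.612), and Stx11, a syntaxin of granule release, had 4.35 and 3.02 against 10.2 and 7.19 (adjusted p = 0.159). Perforin, encoded by Prf1, was at or below 0.18 in all 6 libraries and was not tested.

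Among natural killer receptors and factors, 2 of 8 tested genes rose and 0 fell. Cd244, the 2B4 receptor of natural killer cells, had 0.03 and 0.07 in con, 12.4 and 17.8 in CTdel and 1.5 and 0.68 in ICN. The groups did not overlap, and the log2 change against con was 3.92 ± 0.31 (adjusted p = 0.0170). Il12rb2, a chain of the interleukin-12 receptor, rose from 10.1 and 3.57 to 35.2 and 26.4 (log2 change 2.15, adjusted p = 0.0293), a call lost without con replicate 2 (0.0546) or CTdel replicate 2 (0.105) and without the table term (0.0777). Cd7, an early lymphoid marker, was listed at 0 in con, against 1.53 and 3.32 in CTdel (adjusted p = 0.101). Nfil3, a factor of natural killer development, had 42.8 and 20.3 in con and 18.3 and 10.9 in CTdel (adjusted p = 0.391). The master factors Tbx21 and Eomes were under the filter, as were Cd3e, Cd4 and Cd8a of T cells.

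Of the integrin subunits, 3 of 14 tested genes rose and 0 fell. The median change was 0.93 over the 14, of which 3 were under FPKM 1 in both con libraries, and 0.08 over the 24 in both tables. Itgax, CD11c, had 0.02 and 0 in con, 32.5 and 22.5 in CTdel and 5.97 and 1.38 in ICN, for a log2 change of 4.80 ± 0.38 (adjusted p = 0.0170). Both CTdel libraries stood well above ICN. Itgal, CD11a of the LFA-1 integrin, had 22.2 and 15.3 in con, 103 and 64.5 in CTdel and 34.1 and 21.7 in ICN (log2 change 2.08 ± 0.19, adjusted p = 0.0200). Itga4, the alpha chain of the VLA-4 integrin, had 63.1 and 42.0 in con, 239 and 237 in CTdel and 195 and 100.5 in ICN (log2 change 2.19, adjusted p = 0.0282). The partner chains of these subunits did not pass: Itgb2, the beta chain of CD11a and CD11c, had 46.7 and 30.6 in con and 39.7 and 57.7 in CTdel (log2 change 0.33, adjusted p = 0.769), and Itgb1, a beta chain of VLA-4, had a log2 change of −0.05 (adjusted p = 0.965). Itgb7, the other partner of Itga4, had 16.4 and 8.75 against 24.3 and 46.2 (adjusted p = 0.239). Itgam, CD11b of monocytes and granulocytes, had 0.28 and 0.25 in con and 1.90 and 1.77 in CTdel (adjusted p = 0.211). Itgal lost its call without CTdel replicate 1 (0.0659) or 2 (0.0542), and Itga4 without con replicate 1 (0.0606) or 2 (0.0662) or CTdel replicate 2 (0.135).

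Other adhesion genes followed in smaller number. Ptk2b, the PYK2 kinase that acts downstream of integrins, rose from 40.6 and 26.9 to 130 and 96.8 (log2 change 1.73, adjusted p = 0.0261) and was the only called gene of 15 tested integrin activators, among which talin, Tln1, stood at a log2 change of 0.04. Leaving out con replicate 2, CTdel replicate 1 or CTdel replicate 2 ended the Ptk2b call, at an adjusted p of 0.0617, 0.157 and 0.152. Of 27 other adhesion and homing molecules 2 rose. Cd82, a tetraspanin that binds integrins, had 38.3 and 14.9 in con, 258 and 238 in CTdel and 78.3 and 66.3 in ICN (log2 change 3.32 ± 0.33, adjusted p = 0.0202). Esam, an adhesion molecule of endothelium and of haematopoietic stem cells, rose from 0.20 and 0.32 to 4.75 and 5.06 (log2 change 2.23, adjusted p = 0.0304), a call lost without con replicate 1 (0.0696) or CTdel replicate 2 (0.0873). Icam1, the ligand of LFA-1, had 17.9 and 15.1 in con and 106 and 51.7 in CTdel (adjusted p = 0.0847), the chemokine receptor Cxcr4 had 16.2 and 17.2 against 83.2 and 39.0 (adjusted p = 0.082), and S1pr4, a sphingosine phosphate receptor, had 7.51 and 6.07 against 1.28 and 2.07 (adjusted p = 0.101). Markers of fibroblasts and endothelium stood under FPKM 1 in all 6 libraries in the 5 cases listed in both tables.

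Beyond the lists, 117 of the 144 genes that rose remained, and 61 of them were grouped by known role after their values had been seen. Of the 61, 18 passed with each of the 4 libraries left out in turn. The largest of these groups held 17 regulators of small GTPases and actin, with log2 changes from 1.39 to 3.52. Abr, which acts on small GTPases, went from 8.0 and 7.88 in con to 115 and 89.1 in CTdel, against 39.6 and 19.3 in ICN (log2 change 3.52 ± 0.28, adjusted p = 0.0170). Sh3bp1, a GTPase-activating protein for Rac, had 21.3 and 31.8 in con and 191 and 264 in CTdel (log2 change 3.06, adjusted p = 0.0261). Myo1f, a motor of leukocyte migration, had 2.21 and 1.48 against 23.5 and 19.1, and gelsolin, Gsn, which severs actin filaments, 20.9 and 10.5 against 116 and 81.2. The group also held Prex1, Asap1, Mical1, Hcls1 and Rhog, of which Rhog had the smallest change, from 132 and 155 to 380 and 374. Leaving out con replicate 1 ended the Myo1f call (adjusted p = 0.0581), and each of the 4 libraries ended that of Rhog (0.0629 to 0.446). A further 7 genes were adhesion scaffolds, plexins and matrix proteins (1.55 to 3.18). They included Nedd9 and Cass4, docking proteins of focal adhesions, the semaphorin receptors Plxnc1 and Plxnd1, and Tgfbi, a matrix protein listed at 0 in con and at 3.95 and 4.75 in CTdel.

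Surface receptors of leukocytes made up 12 more genes (log2 changes 1.6 to 3.91). Ffar2, a receptor of short-chain fatty acids on neutrophils, had 7.17 and 1.78 in con, 71.6 and 69.5 in CTdel and 30.5 and 13.7 in ICN (log2 change 3.91 ± 0.37, adjusted p = 0.0200). The paired activating receptors Pilrb1 and Pilrb2, which signal through DAP12, rose from 2.08 and 1.13 to 18.5 and 15.1 and from 0.87 and 0.22 to 7.77 and 5.02, and reads of such near-identical genes may be split between them. Ptprc, the CD45 phosphatase of all leukocytes, had 77.6 and 32.6 in con and 255 and 178 in CTdel (adjusted p = 0.0263), a call lost without con replicate 2 (0.0531) or CTdel replicate 2 (0.135) and without the table term (0.104). Lysosomal and endosomal proteins gave 6 genes (1.27 to 3.16), among them the hydrolases Sgsh, Gm2a and Lipa, the proton pump subunit Tcirg1 and Unc93b1, which carries nucleic acid sensing Toll-like receptors. Unc93b1 had 25.2 and 18.6 in con and 106 and 132 in CTdel (log2 change 2.40, adjusted p = 0.0205), and did not pass without CTdel replicate 2 (0.0604). The TNF family gave 3 genes: the decoy receptor Tnfrsf23, from 0.32 and 0.13 to 34.0 and 20.5, its neighbour Tnfrsf26, from 8.78 and 3.61 to 35.1 and 30.4, and lymphotoxin beta, Ltb, from 59.9 and 11.4 to 315 and 187. Ltb did not pass without con replicate 2 (0.0632) or the table term (0.209), and Tnfrsf26 did not without that library (0.062) or without CTdel replicate 1 (0.0547) or 2 (0.0835).

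Inhibitors of signalling gave 7 genes (1.70 to 4.36) and kinases 4 (1.95 to 3.13). Dusp1, which switches off MAP kinases, rose from 4.44 and 2.43 to 119 and 64.9 (log2 change 4.36 ± 0.21, adjusted p = 0.0111). Peli1, a ubiquitin ligase of Toll-like receptor signalling, had 16.2 and 9.31 in con and 140 and 97.0 in CTdel (log2 change 3.14, adjusted p = 0.0135), and Smad7, which blocks TGF-beta receptors, 2.42 and 3.45 against 28.4 and 36.5, a call lost without con replicate 1 (0.0892). Jak2, the kinase that carries the interleukin-3 signal on which BaF3 cells depend, rose from 20.3 and 15.2 to 70.3 and 77.3 (log2 change 2.01, adjusted p = 0.0265), a call lost without con replicate 1 (0.0532) or 2 (0.0639) or CTdel replicate 2 (0.137), while the receptor chains Il3ra (−0.16) and Csf2rb (−0.26) did not pass. Of transcription factors outside the lists Nr4a1, Pou2f2 and Runx3 rose. Runx3, a factor of cytotoxic T cells and dendritic cells, had 14.6 and 17.0 in con and 36.9 and 46.2 in CTdel (log2 change 1.34, adjusted p = 0.045), a call lost with each of the 4 libraries left out in turn (0.0964 to 0.381) and without the table term (0.0661). Samhd1, which depletes nucleotides in myeloid cells, rose from 44.2 and 35.2 to 267 and 489, Hsd11b2, which inactivates glucocorticoids, from 0.14 and 0.40 to 51.9 and 63.6, and Tgm2, a transglutaminase of macrophages, from 54.1 and 32.8 to 320 and 363. Of these 3, Hsd11b2 did not pass without con replicate 1 (0.0581).

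Of the 12 genes that fell, 8 were members of the progenitor and mast cell lists. Those 3 lists had falls in 3 of 23, 4 of 14 and 1 of 7 tested genes, beside 0.109% of all tested genes. Members of these lists were chosen with earlier results of these data known, so these counts are no support for a progenitor loss. Among 23 tested progenitor transcription factors 3 fell and 0 rose, with a median change of −0.19 (−0.54 in replicate 1 and 0.02 in replicate 2) and of −0.01 over the 34 in both tables. Gata2, a factor of haematopoietic stem cells and mast cells, had 238 and 192 in con, 74.7 and 61.8 in CTdel and 104 and 78.0 in ICN, with both CTdel libraries the lowest of the 6 (log2 change −1.64 ± 0.19, adjusted p = 0.0261). Zfpm1, the GATA cofactor FOG1, had 115 and 218 in con, 35.1 and 55.5 in CTdel (log2 change −1.82, adjusted p = 0.0379). Mycn, a growth-promoting MYC factor of early progenitors, fell from 81.9 and 54.4 to 21.2 and 18.7 (log2 change −1.70, adjusted p = 0.0306), while Myc had a log2 change of −0.11 (adjusted p = 0.907). Tal1, a stem cell and erythroid factor, had 94.4 and 83.9 in con and 36.9 and 39.9 in CTdel, with no overlap, but missed the threshold (log2 change −1.19, adjusted p = 0.0632). Myb, which keeps progenitors dividing, had 81.8 and 53.1 against 32.7 and 27.6 (adjusted p = 0.118). The loss did not extend over the list. Mecom (0.15), Lmo2 (0.39), Runx1 (0.58) and Fli1 (0.03) did not pass, and Etv6, a repressor needed for stem cells, had 17.3 and 20.3 in con and 39.9 and 44.0 in CTdel (adjusted p = 0.0751).

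Progenitor surface and growth factor genes fell in 4 of 14 tested members, and 1, Esam, rose. F2r, the thrombin receptor PAR1, had 698 and 387 in con, 165 and 115 in CTdel and 276 and 219 in ICN (log2 change −1.91 ± 0.21, adjusted p = 0.0261). Adgrg1, the adhesion receptor GPR56 of stem cells, had 139 and 167 in con, 47.7 and 55.3 in CTdel and 79.5 and 91.4 in ICN, with no overlap between the groups (log2 change −1.55, adjusted p = 0.0279). Flt3l, the ligand of the progenitor receptor FLT3, fell from 64.2 and 47.9 to 15.8 and 16.4 (log2 change −1.72, adjusted p = 0.0293), and Muc13, a transmembrane mucin, from 178 and 169 to 63.8 and 27.6 (log2 change −2.02, adjusted p = 0.0458). Kitl, Flt3, Cd34 and Il7r were under the filter. The mast cell protease Cpa3 fell from 26.7 and 6.14 to 4.56 and 1.64 (log2 change −1.88, adjusted p = 0.0437), with the con libraries far apart, and without the table term its adjusted p was 0.446. The other 6 tested mast cell and basophil genes did not pass, and 4 of the 7 lay on the positive side. Outside the lists the kinase gene Dmpk (16.2 and 17.7 to 3.02 and 3.73), the hexokinase Hk3 (121 and 85.1 to 34.5 and 30.5), the calcium-binding Nucb1 (242 and 237 to 104 and 73.4) and the microRNA gene Mir1949 fell.

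**Figure D3:**
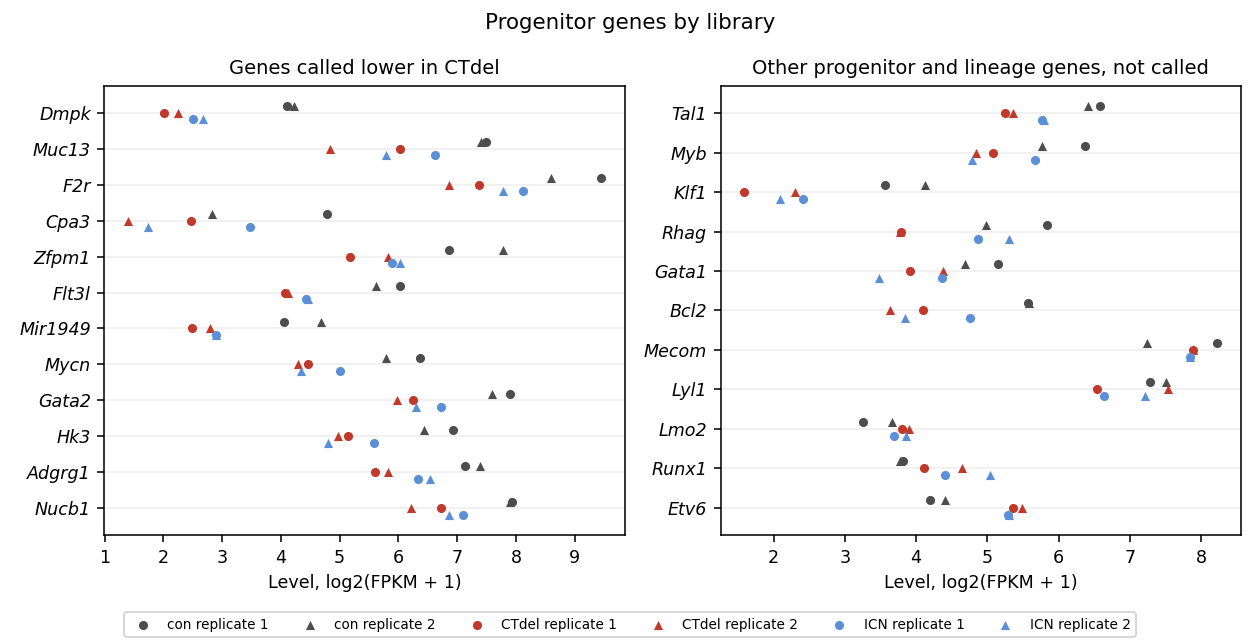
Level in log2(FPKM + 1) of the 12 genes called lower in CTdel (left) and of 11 progenitor and lineage genes that were not called (right), in the 6 libraries; grey marks con, red CTdel and blue ICN, with circles for replicate 1 and triangles for replicate 2. On the left the red symbols lie to the left of both grey ones. On the right Tal1, Myb, Klf1, Rhag, Gata1 and Bcl2 do the same without passing the test. Mecom and Lyl1 overlap there, and Etv6 lies to the right. The 11 genes were picked by hand, and the share of all tested genes that separate in this way was not counted, so the right panel is no support for a wider loss.

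A larger share of the falls than of the rises lost the call when a library was left out, though not always through a change in size. Over the settings tried, the log2 change of Gata2 ran from −1.683 to −1.596 and that of Adgrg1 from −1.577 to −1.515. That of Muc13 ran from −2.48 to −1.554. Without CTdel replicate 1, of the 12 only Muc13 still passed (adjusted p = 0.0465), with Gata2 at 0.23, Zfpm1 at 0.199, Mycn at 0.267, F2r at 0.16, Adgrg1 at 0.242, Flt3l at 0.21 and Cpa3 at 0.237. Without CTdel replicate 2, of the 12 only Cpa3 passed (0.0369), with Muc13 at 0.229 and Gata2 at 0.177. Without con replicate 1, Zfpm1, Muc13, Dmpk and Mir1949 still passed, and without con replicate 2, F2r, Flt3l and Dmpk. Of the 144 rises, 85 still passed without CTdel replicate 1 and 68 without CTdel replicate 2. Without the table term 107 of the 144 rises and 6 of the 12 falls passed. The falls lost were F2r (adjusted p = 0.055), Mycn (0.0595), Zfpm1 (0.0743), Hk3 (0.0754), Muc13 (0.0981) and Cpa3. Among erythroid and megakaryocyte genes 0 of 14 passed, and 2 lay on the positive side (median change −0.32, and −0.06 over the 23 in both tables). Klf1, the erythroid master factor, had 10.8 and 16.4 in con and 2.01 and 3.94 in CTdel (log2 change −1.90, adjusted p = 0.0584), and Rhag, a red cell membrane protein, 56.2 and 30.6 against 12.8 and 12.7 (adjusted p = 0.11). The haemoglobin gene Hba-a1 had 118 and 578 in con and 83.2 and 216 in CTdel, and the groups overlapped (adjusted p = 0.265).

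Fitted without the ICN libraries, a setting with 1 residual degree of freedom and a median prior of 9.12, the same comparison called 572 genes higher, 5.18% of those tested, and 158 lower, 1.43%, with all 156 genes above among them. In that fit 4 of the 9 myeloid transcription factors rose, Nfatc1 and Relb joining Spi1 and Id2. Of the myeloid receptors 12 rose and 1, the Fc receptor Fcgr1, fell, and of the phagocyte effectors 14 rose and 3 fell, S100a8, S100a9 and Mmp8. Integrin subunits gave 7 rises, with Itga5, Itgam, Itgav and Itgb7 added. Progenitor transcription factors gave 5 falls, with Tal1 and Myb added, and 1 rise, Etv6, and the erythroid list gave 4 falls: Klf1, Rhag, Hba-a1 and Hbb-b1. Cytotoxic effectors gave 3 rises, Stx11 being added, and 19 of 28 interferon-response genes and 14 of 22 NF-kB targets rose. This setting rests mainly on the spread shared across genes.

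Classical Notch targets were called in 2 of 14 tested genes, both higher. Dtx1, a ubiquitin ligase that regulates Notch, had 0 and 0.05 in con, 15.5 and 8.71 in CTdel and 2.86 and 1.02 in ICN (log2 change 3.63 ± 0.31, adjusted p = 0.0170). Asb2, a subunit of a ubiquitin ligase that targets filamins, was listed at 0 in con, with 7.86 and 15.3 in CTdel and 1.0 and 0.64 in ICN (adjusted p = 0.0200). Both genes were lowest in con and highest in CTdel, whereas Notch1 itself was highest in ICN. CTdel and ICN were thus not compared at equal levels of Notch1 RNA. Il2ra, CD25, had 110 and 28.8 in con and 413 and 762 in CTdel (adjusted p = 0.0861), and Bcl2, which blocks apoptosis, had 46.2 and 46.9 against 16.1 and 11.4 (adjusted p = 0.0557). Hes1 stayed at or below 0.07 in all 6 libraries.

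Genes of the interferon and NF-kB responses lay higher in CTdel than in con, most of them without passing the test. All 28 tested interferon-response genes were on the positive side, beside 42.1% of all tested genes. Their median change was 1.37 (0.88 in replicate 1 and 2.12 in replicate 2), and 0 of the 28 passed in limma's test. The median over the 28 was 2.57 without con replicate 1, when 9 passed, and 0.52 without con replicate 2, when 0 did. Their summed FPKM was 977 and 468 in con and 2037 and 2313 in CTdel. Outside this list, Ifi44l, Ifitm2 and Ifi27l2a, genes named for induction by interferon, did pass. Their log2 changes were 3.08, 2.34 and 2.56 (limma adjusted p = 0.0261, 0.0261 and 0.0465), and they were picked after their values were seen. Ifi27l2a did not pass with a pseudocount of 0.1 or after rescaling. All 22 NF-kB targets also lay on the positive side, at a median change of 1.52. Of these, 3 rose: Nfkbia, Nfkbie and Tnip1, inhibitors of the pathway. Tnip1 lost its call with each of the 4 libraries left out (0.0672 to 0.3), Nfkbia without con replicate 1 or 2, without CTdel replicate 1 and without the table term (0.0671 to 0.266), and Nfkbie without CTdel replicate 1 (0.0551). The count was 1 without CTdel replicate 1 and 7 without CTdel replicate 2. Summed over the list, FPKM came to 586 and 248 in con, against 2097 and 1079 in CTdel. The 44 tested histone genes had a median change of 0.36 (0.73 and 0.03), with 1, Hist1h2bg, higher (adjusted p = 0.0597 without the table term), and the 26 cell cycle genes had one of 0.01 with 0 called. The part of these responses in the myeloid, cytotoxic and adhesion gains was not tested.

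**Figure D4:**
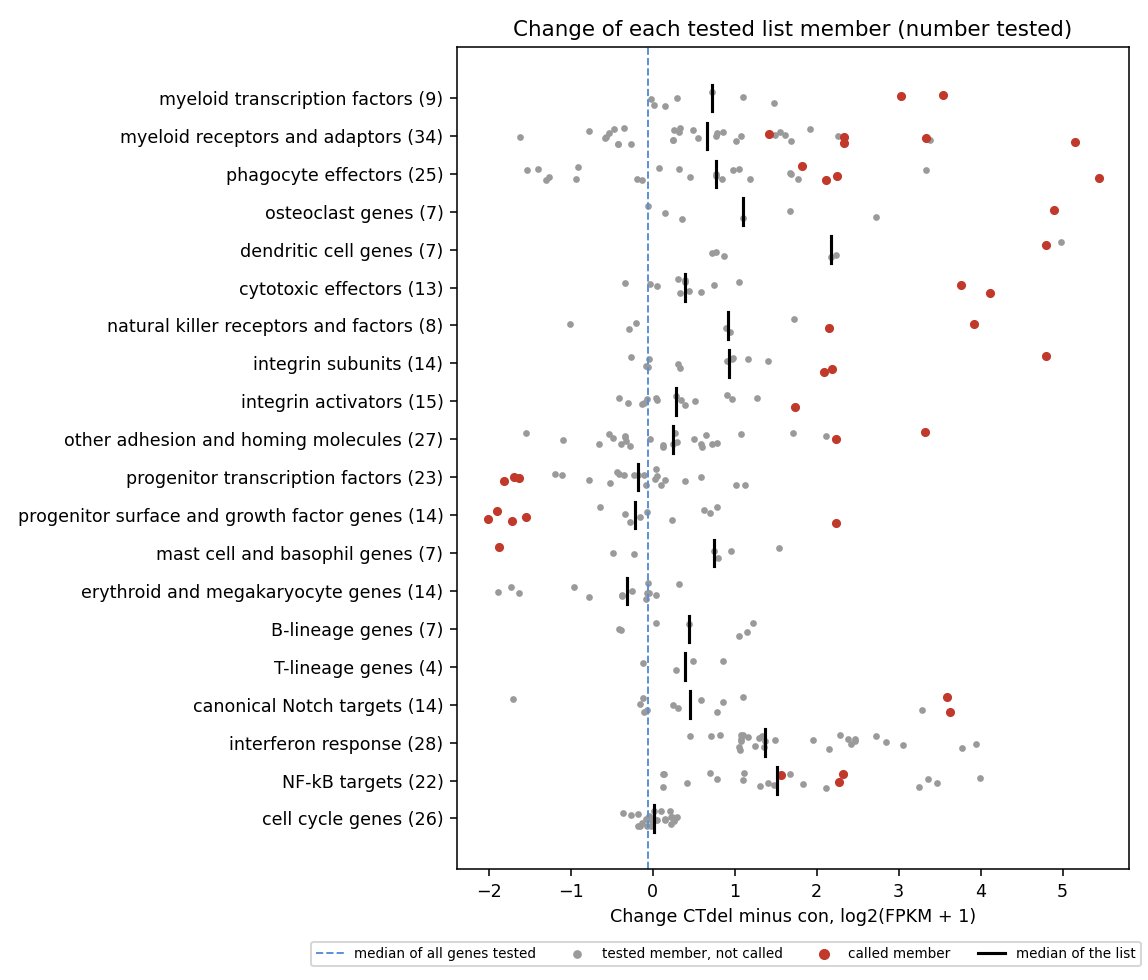
Change CTdel minus con, in log2(FPKM + 1), of each tested member of the 20 gene lists with a tested member; the number tested is in brackets. Red points are called genes, grey points the other tested members, black bars the list medians, and the dashed line the median of all tested genes, −0.06. Interferon, NF-kB and dendritic cell points lie to the right of 0, cell cycle points lie close to it, and called genes to its left are confined to the progenitor and mast cell lists.

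Tested directly against ICN in the same fit, 2 of the 11050 genes differed, 0.0181%, and both, Park2 and Pbld1, were lower in CTdel and not among the 156. Park2, which encodes the ubiquitin ligase parkin, had 1.51 and 0.22 in CTdel and 97.5 and 57.4 in ICN, near its con values of 0.65 and 0.62. Of the 156 genes 0 differed from ICN (limma, smallest adjusted p = 0.212), although 111 of them were at an unadjusted p under 0.05. Those genes were chosen with the CTdel libraries, so that count is no support for a difference. The count depended on ICN replicate 1, without which 891 genes passed, and without ICN replicate 2 it was 9. Among the genes that rose, the log2 difference from ICN was 3.65 for Ocstamp, 3.45 for Treml4, 3.34 for Hsd11b2, 2.95 for Cd244 and 2.79 for Itgax, whereas it was −0.88 for Gzmb and 0.19 for Ptafr.

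Some called genes lay close to each other. Of 594 tested genes with another gene that was called within 100000 bases, 30 were called, 5.05%, against 1.2% of the other 10432. The 17 pairs included Tnip1 with Anxa6 and Anxa6 with Gm2a on chromosome 11, Tnfrsf26 and Tnfrsf23 on chromosome 7, Pilrb1 and Pilrb2 on chromosome 5, Ifitm5 and Ifitm2 on chromosome 7 and Tcirg1 and Unc93b1 on chromosome 19. Some pairs overlap or nearly so and may share reads: Abi3 with Gngt2, Sgsh with Slc26a11, and Cfb, which ends 87 bases from C2. The microRNA genes Mir6972, inside Cfb, and Mir7001, inside Cd82, were counted as neighbours too, so the 5.05% includes genes nested in each other. On chromosome 8 a pair moved in opposite directions. Adgrg5 (94921811 to 94943293 in GRCm38.p6) rose from 2.03 and 4.92 to 25.2 and 58.7 (adjusted p = 0.0364, but 0.0862 without con replicate 1 and 0.052 without con replicate 2), while Adgrg1, 31462 bases away (94974756 to 95014208), fell. Genes in a pair are not independent, and the counts by list treat them as single genes.

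The 3 microRNA genes that rose lay close to the lowest values of their length. Mir6972 lies within Cfb and Mir7001 within Cd82, and both were listed at 0 in con and at 2.0 to 4.99 times the lowest value of their length in CTdel. Mir6958, within Dennd6b, stood at 2.0 times that value in both CTdel libraries and at 0 in con, while Dennd6b itself did not pass (log2 change 0.24). Mir1949, within Snhg4, fell from 15.6 and 24.6 to 4.64 and 5.92. In CTdel replicate 1 it too lay near the floor, at 2.99 times the lowest value of its length, 1.55. In CTdel replicate 2 its own 5.92 was the lowest value of that length, so its distance from the floor cannot be read there. Snhg4 itself did not pass (log2 change −0.51).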

How the data were processed

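RNA of 6 BaF3 libraries was measured, 2 each for con, CTdel and ICN, with an MGIEasy mRNA kit per the labels. Tools named in the submitters' processing notes are HISAT2, Bowtie2 and RSEM, and builds are hg19 and mm10, without a role for any. FPKM per gene is the unit the authors deposited, per the file headers, in 2 tables, 1 per replicate number, of 17877 and 17868 genes (16799 shared). FPKM keep no read totals, so total depth and counting error are unknown, and only the relative depth of the libraries was read, from the lowest values of small RNA genes. The model, limma 3.58.1 under R 4.3.3 on log2(FPKM + 1), had group and table as terms, all 6 libraries and an intensity trend. It had 2 residual degrees of freedom and a median prior of 3.82. P-values were 2-sided and adjusted by Benjamini-Hochberg over 11050 genes, namely shared genes that reached FPKM 1 in 2 or more libraries. An exact permutation of 2 against 2 libraries cannot pass 0.05. The fit was also run on data simulated from its own variances with normal noise. Such data cannot show how well it is calibrated for these libraries. The table was a term because each replicate number is a deposited table. Deviations of same-numbered con and CTdel libraries from their group means correlated at 0.326, those of con and ICN at −0.099 and those of CTdel and ICN at 0.236.

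The genes named were Notch1, the genes called lower, the 40 largest rises with a mean FPKM of at least 1, called list members, per list up to 4 tested members with the smallest p, and defining markers under FPKM 1. Others, such as Zeb2, Mecom, Lmo2, Runx1, Fli1, Myc, Il3ra, Csf2rb, Itgb1, Itgb2, Itgb7, Tln1, S100a8, S100a9, Park2 and Pbld1, were chosen after their values were seen, as were the groupings by role. Some genes under this rule are not reported here. Members and lists were chosen with earlier results of these data known. Positions, promoters and gene names came from RefSeq, GRCm38.p6, in which 16758 of the shared genes were found. Symbols that spreadsheet software had made into dates (23 of them) were replaced using Gene IDs.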

Additional observations from a re-analysis of the deposited data

How the results depend on the processing

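The settings tried were no table term, a pseudocount of 0.1, no filter and a stricter filter on low values, rescaling, quantile normalization, no intensity trend, the 2 groups alone, and each library left out. With no replicate block the counts were 121 higher and 9 lower, and 113 of the 156 genes were among them. The numbers share a table and, with 2 per group, no more can be said of pairing. Without a filter on low values 0 genes passed in limma in either comparison, with 1592 and 1386 of 16799 at an unadjusted p under 0.05. With the 2 groups alone the counts were 572 and 158. Leaving out 1 library gave 103 to 111 higher and 1 to 13 lower genes, and for CTdel against ICN 2 to 891. That comparison gave 0 genes with a pseudocount of 0.1, 1 with the stricter filter and 3 with its 2 groups alone. Of the 156 genes 41, all higher, passed in each setting that tested them, other than the fit without a filter. Among the genes followed singly, which were the called genes and those of each list with the smallest p, 4 that had not passed changed direction, and their log2 change with 1 library left out ran from −1.36 to 0.068 (Cd53, positive without con replicate 1), −0.20 to 0.79 (Mcm7, negative without con replicate 1), −0.44 to 0.082 (Plk1, positive without CTdel replicate 1) and −0.33 to 0.098 (Ptcra, positive without CTdel replicate 2). Other tested genes changed direction too, as the median of the cell cycle list ran from −0.36 to 0.34 with a con library left out. The cause of these changes was not tested. A library left alone in its group is assumed to vary like the others.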
